A study of Equus caballus with 2 samples.

Results

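The genes described here encode the immunoproteasome and the machinery that carries its peptides to class I molecules of the major histocompatibility complex (MHC). There were 10 of them among the 21426 genes listed in single cell sequencing data of fibroblasts from the equine endometrium: *PSMB8*, *PSMB9*, *PSMB10*, *PSME1*, *PSME2*, *TAP1*, *TAP2*, *TAPBP*, *TAPBPL* and *B2M*. They were found by symbol and were chosen by their role and on the ratio of their levels after TGF-β1 and in the control, so the difference between the libraries is a description and not a test. All 10 had lower levels after TGF-β1. The immunoproteasome subunits *PSMB8*, *PSMB9* and *PSMB10* were 4.47-fold, 6.02-fold and 4.21-fold lower, the activator subunit *PSME2* was 3.11-fold lower, and the class I light chain *B2M* was 1.60-fold lower, whereas the standard subunits *PSMB5*, *PSMB6* and *PSMB7*, which are not among the 10 genes, differed by far less.

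The fibroblasts came from the endometrium of 4 mares, taken from abattoir material without inflammatory cells. They were cryopreserved, expanded in culture, and grown on collagen-coated hydrogels. For the last 24 h, the medium of both groups contained 0.1% BSA in place of serum. The control received nothing further and the other group received 10 ng/ml human recombinant TGF-β1. The ages of these mares were not given in the sources used here. Each group was a pool of the 4 mares' cells from which 1 droplet library was made, and single cells could not be traced to their mare here. With 1 sample per condition, the libraries could not be tested against each other and no p-value is printed. An effect of TGF-β1 and one of library preparation cannot be told apart.

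Proteasomes are barrel-shaped proteases that cut proteins into peptides. When cells receive an interferon signal, the standard catalytic subunits encoded by *PSMB5*, *PSMB6* and *PSMB7* can be replaced in newly made proteasomes by those encoded by *PSMB8*, *PSMB9* and *PSMB10*, and the barrel can be capped by the PA28 activator of *PSME1* and *PSME2*, which changes the peptides that are released. The peptides pass into the endoplasmic reticulum through the transporter TAP and are loaded onto class I molecules, which show them to T cells. Fibroblasts, like nearly all nucleated cells, have this pathway without being immune cells.

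Every captured transcript carried a unique molecular identifier (UMI) that is counted once. The minimum for a cell was 20000 UMIs and 3500 genes, with a mitochondrial share below 4%, which kept 3865 of 4384 barcodes in the control library and 4513 of 5124 in the TGF-β1 library. They held 210497250 and 219731144 UMIs, with medians of 50313 and 43142 UMIs per cell, and 2 kept barcodes occurred in both libraries. The label fibroblast was checked against 8 marker genes. *VIM* and *COL1A1* were found in 100% of cells of both libraries, and the summed level of the 8 genes was 21499 and 21707 counts per 1000000 UMIs (CPM) in control and TGF-β1 cells. Of the 8, 4 were lower and 4 higher after TGF-β1, with the largest differences in *PDGFRA*, at 50.5 and 16.7 CPM, and *VIM*, at 4399 and 2240 CPM (log2 ratio -0.97). What these differences had to do with those of the 10 genes was not tested. Of 10 leukocyte markers, which bear on whether cells with a high basal level of this pathway were present, *PTPRC* had 1 UMI in the control and 0 in the TGF-β1 library, *CD2* had 0 in both, and *CD3E* and *LYZ* had at most 2 UMIs per library. Only *CD68*, at 42.6 CPM in the control and 43.1 CPM after TGF-β1, and *CD14*, at 14.0 and 9.75 CPM, reached a mean of 1 CPM. The summed level of the list was 57.0 CPM in the control and 53.2 CPM after TGF-β1. Summed epithelial markers were at 0.789 and 0.787 CPM and summed endothelial markers at 0.784 and 0.410 CPM.

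Levels are given as CPM of the UMIs summed over the kept cells of a library. Each ratio is the log2 of the TGF-β1 level divided by the control level, with no pseudocount added, and the range in brackets is its exact 95% binomial interval for counting error alone. The 3′ kit counts transcripts at one end, and levels were not compared between genes of different sequence except as ratios that were then set side by side for the libraries.

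The catalytic subunits of the immunoproteasome had the lowest ratios together with *TAPBPL*. *PSMB8*, which encodes the chymotrypsin-like subunit β5i, had 18268 UMIs or 86.8 CPM in the control and 4266 UMIs or 19.4 CPM after TGF-β1 (log2 ratio -2.16, -2.21 to -2.11). *PSMB9*, which encodes β1i, had 10139 UMIs or 48.2 CPM and 1757 UMIs or 8.0 CPM, a log2 ratio of -2.59 (-2.66 to -2.52). *PSMB10*, which encodes β2i, had 15400 UMIs or 73.2 CPM and 3820 UMIs or 17.4 CPM, a log2 ratio of -2.07 (-2.12 to -2.02). The TGF-β1 library was thus the low one for each of these subunits, at 22.4%, 16.6% and 23.8% of the control level. *PSMB9* had the lowest ratio of the 10 genes, and 35 of the 12116 genes that averaged at least 1 CPM had a lower one.

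The activator subunits differed from each other in size of change. *PSME1*, which encodes PA28α, had 414 CPM in the control and 225 CPM after TGF-β1 (log2 ratio -0.88, -0.90 to -0.87). *PSME2*, which encodes its partner PA28β, had 203 CPM and 65.4 CPM, a log2 ratio of -1.64 (-1.66 to -1.61). The intervals of the ratios do not overlap, although the proteins join into a shared ring. In UMIs per cell, *PSME1* went from a mean of 22.6 to 10.9 and *PSME2* from 11.1 to 3.18.

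The transport and loading genes spanned the widest range. *TAP1* and *TAP2* encode the partner chains of the peptide transporter. *TAP1* was at 9.64 CPM in the control and 7.81 CPM after TGF-β1, with a log2 ratio of -0.30 (-0.40 to -0.21), the smallest difference of the 10 genes. *TAP2* was at 9.68 and 4.86 CPM, with a log2 ratio of -0.99 (-1.10 to -0.89). The chains work only as a pair, and the intervals of their ratios do not overlap. *TAPBP* encodes tapasin, which holds class I molecules at the transporter until a peptide is bound. It was at 29.3 and 12.2 CPM, with a log2 ratio of -1.27 (-1.33 to -1.20). *TAPBPL* encodes TAPBPR, a tapasin-related protein that edits the peptide cargo away from the transporter. It was at 20.6 CPM and 4.22 CPM, with a log2 ratio of -2.29 (-2.39 to -2.18), between those of *PSMB9* and *PSMB8*.

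*B2M* encodes β2-microglobulin, the light chain shared by class I molecules, and was found in nearly every cell. It had 421333 UMIs or 2002 CPM in the control and 274284 UMIs or 1248 CPM after TGF-β1 (log2 ratio -0.68, -0.69 to -0.67). No row whose symbol names an equine class I heavy chain was matched, so the partner of *B2M* was not analysed here.

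**Figure D1:**
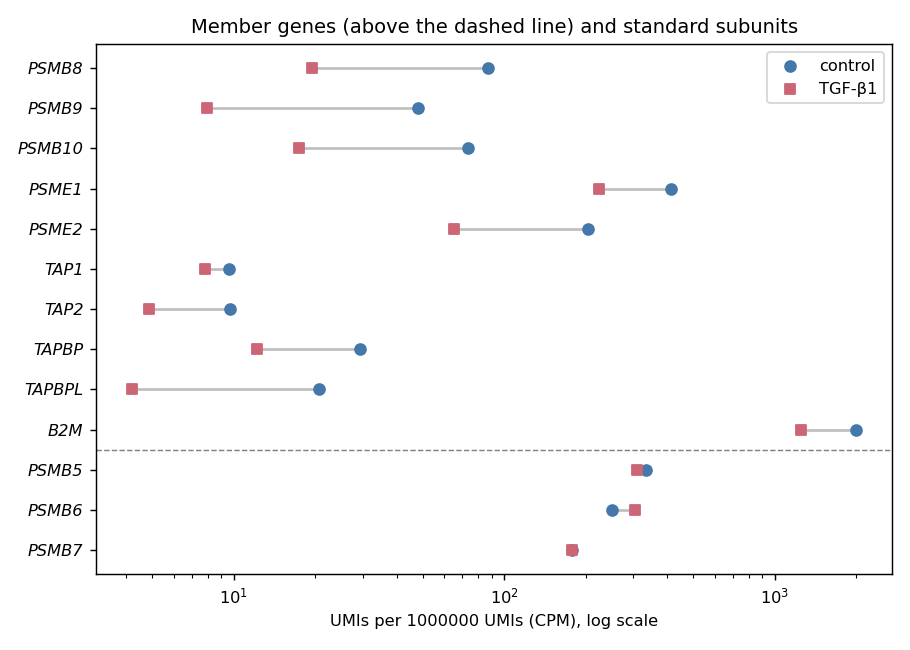
Level of each of the 10 genes and of the standard subunits *PSMB5*, *PSMB6* and *PSMB7* in CPM on a log axis, with a circle for the control library, a square for the TGF-β1 library and a grey line between them. All 10 squares above the dashed line lie left of their circles, with *B2M* at 2002 and 1248 CPM and *TAPBPL* at 20.6 and 4.22 CPM, and the 3 standard subunits below it lie close together.

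Read together, 10 of the 10 genes were lower after TGF-β1, where 51.3% of the 12116 genes that averaged at least 1 CPM were lower. More than 2-fold lower were 6 of the 10 genes, *PSMB8*, *PSMB9*, *PSMB10*, *PSME2*, *TAPBP* and *TAPBPL*, and 3.46% of all genes. Since the genes were selected on this contrast, nothing further is read from these counts. Of the genes past the 2-fold limit, *TAPBP* was nearest to it, at 2.41-fold lower. *TAP2*, at 1.99-fold lower, lay just short of it, and with a median-of-ratios scaling *TAP2* passed it and the count was 7. Their log2 ratios had a median of -1.45, and those of all genes a median of -0.01.

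**Figure D2:**
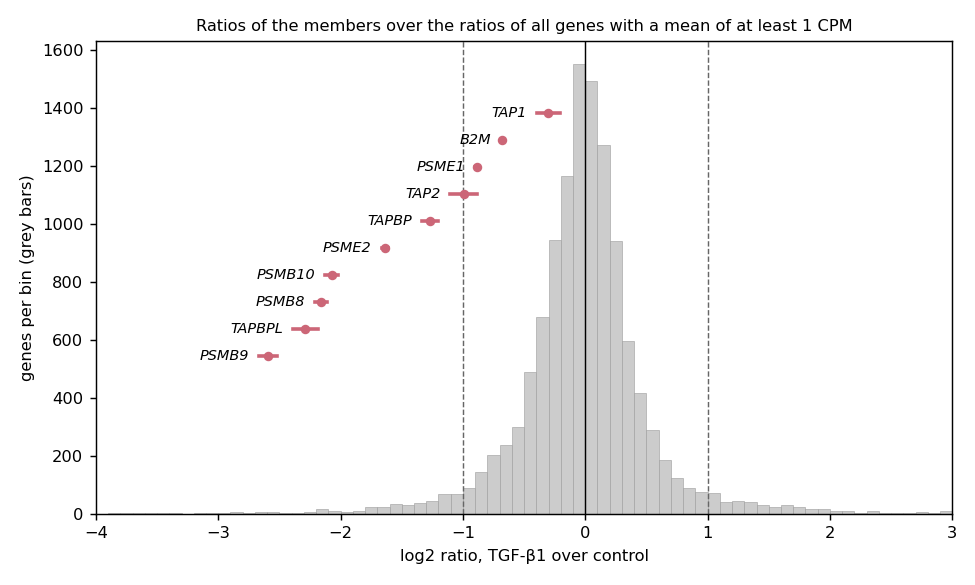
The log2 ratios of TGF-β1 over control for the 10 genes (red points with exact 95% counting intervals, placed at arbitrary heights) over a histogram of the ratios of all genes averaging at least 1 CPM (grey bars, genes per bin of 0.1, shown from -4 to 3). The points run from -2.59 for *PSMB9* to -0.30 for *TAP1*, dashed lines mark 2-fold differences, and the bulk of the histogram is centred near 0.

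The standard subunits gave a reference within the same particle. *PSMB5* was at 335 CPM in the control and 310 CPM after TGF-β1, with a log2 ratio of -0.11 (-0.13 to -0.10). *PSMB6* was higher, at 251 and 305 CPM (0.28, 0.26 to 0.30). *PSMB7* was at 178 CPM in both libraries (0.01, -0.01 to 0.03). Setting each immunoproteasome subunit against the standard subunit it replaces gives a share that does not depend on the library total. *PSMB8* made up 20.6% (20.3% to 20.8%) of the UMIs of *PSMB8* plus *PSMB5* in the control and 5.90% (5.73% to 6.07%) after TGF-β1. *PSMB9* made up 16.1% (15.8% to 16.4%) and 2.56% (2.44% to 2.68%) of the UMIs of *PSMB9* plus *PSMB6*. *PSMB10* made up 29.2% (28.8% to 29.6%) and 8.88% (8.62% to 9.16%) of the UMIs of *PSMB10* plus *PSMB7*. At each of the 3 positions the UMIs were mostly those of the standard subunit in both libraries, and more so after TGF-β1. How well each gene is captured may differ, so the shares compare the libraries and not the amounts of the subunits.

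Of the wider list of 22 other proteasome genes, which holds the 3 standard subunits above, the remaining core subunits, other activators, an inhibitor and assembly factors, 19 were found. After TGF-β1, 7 were lower and 12 higher, where 51.3% of all genes were lower, and their median log2 ratio was 0.01. None was more than 2-fold lower, as 3.46% of all genes were, or more than 2-fold higher. The largest differences were those of *PSMA7*, an outer-ring subunit (443 to 604 CPM, log2 ratio 0.45), of *PSMB6*, and of *PSME4*, which encodes the activator PA200 (37.5 to 45.4 CPM, 0.27). *POMP*, the chaperone that helps both types of core particle to assemble, had a log2 ratio of 0.12. The most negative ratio of the list was that of *PSMB2* (-0.23), still above that of *TAP1*.

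All 10 genes of a list of further class I pathway genes were measured. After TGF-β1, 6 were lower and 4 higher, near the 51.3% of all genes that were lower, and 2 were more than 2-fold lower, where 3.46% of all genes were. These were *ERAP1* and *ERAP2*, the endoplasmic reticulum aminopeptidases that trim peptides to fit class I molecules. *ERAP1* was at 5.85 CPM in the control and 2.16 CPM after TGF-β1 (log2 ratio -1.44, -1.59 to -1.28), and *ERAP2* was at 8.20 and 3.48 CPM (-1.24, -1.36 to -1.11). *NLRC5*, a transactivator of class I genes, was at 7.5 and 4.76 CPM (-0.66, -0.77 to -0.54). The other peptidases of the list, *LNPEP*, *NPEPPS* and *TPP2*, had log2 ratios of 0.01, -0.02 and -0.03. The chaperones, which serve many other proteins, differed among themselves, with ratios of 0.49 for *CALR*, 0.40 for *PDIA3*, 0.08 for *CANX* and -0.15 for *HSPA5*. The median of this list was -0.02.

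Genes of class II presentation were mostly near the limit of detection. Of 12 rows found, 4 reached a mean of 1 CPM. *CTSS*, a protease that prepares class II molecules, had a log2 ratio of -0.51 and *HLA-DMA*, a class II peptide editor, of -0.53. The chain genes *DRB* (33.6 and 40.1 CPM) and *DQB* (5.57 and 6.41 CPM) had ratios of 0.26 and 0.20. Their partner chains *DRA* and *DQA* had only 26 and 59 UMIs and 6 and 25 UMIs, and a further *DQB* row had 0 and 3. What the *DRB* and *DQB* rows counted was not tested. The class II transactivator *CIITA* had 32 UMIs in the control and 55 after TGF-β1, and the invariant chain *CD74* had 1 and 6.

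Among 26 measured regulators, chiefly interferon receptors and their JAK-STAT and IRF mediators, 22 were lower and 4 were higher after TGF-β1, with a median log2 ratio of -0.31, where 51.3% of all genes were lower. More than 2-fold lower were 4 of them, and 3.46% of all genes. *IRF7*, an interferon-induced transcription factor, was at 6.89 CPM in the control and 1.11 CPM after TGF-β1 (-2.63, -2.83 to -2.44). The receptor chains *IFNGR2* (19.8 and 7.29 CPM, -1.44) and *IFNAR2* (6.02 and 2.30 CPM, -1.39) and the factor *IRF9* (24.1 and 12.0 CPM, -1.01) followed. *IRF1*, which is known to act on the promoters of *PSMB9* and *TAP1*, had a ratio of -0.77. The highest ratio was that of the feedback inhibitor *SOCS1*, at 0.47. *IFNG* had 0 UMIs in both libraries, so that no transcripts of interferon gamma were detected in the cultures at this depth.

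Because the libraries differed in UMIs per cell, each cell was thinned at random to 20000 UMIs before cells with at least 1 UMI were counted. *PSMB8* then had a UMI in 73.7% (72.2% to 75.0%) of the cells without TGF-β1 and in 29.8% (28.5% to 31.2%) of those with it. *PSMB9* was found in 55.1% (53.5% to 56.6%) and 13.0% (12.0% to 14.0%), and *PSMB10* in 69.1% (67.6% to 70.6%) and 28.8% (27.5% to 30.1%). These were the largest differences in share among the 10 genes, between 40.3 and 43.8 percentage points. Without thinning the shares were 91.9% and 49.7% for *PSMB8*, 79.4% and 26.9% for *PSMB9*, and 90.5% and 50.3% for *PSMB10*.

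The share of cells with *PSME2* was 95.5% in the control and 70.5% after TGF-β1. *PSME1* and *B2M* were found in at least 97.9% of the thinned cells of both libraries, where the share is close to its upper limit and says little of the level. For *PSME1* it was 99.7% (99.5% to 99.9%) in the control and 97.9% (97.4% to 98.3%) after TGF-β1. The median count per thinned cell was 37 UMIs in control and 22 in TGF-β1 cells for *B2M*, and 8 and 4 for *PSME1*. Among the loading genes, *TAPBP* was found in 43.0% and 20.9% of cells, *TAPBPL* in 32.1% and 8.40%, *TAP2* in 18% and 9.0%, and *TAP1* in 16.1% and 13.3%. Without thinning, the last 4 shares were 74.0% and 42.2%, 61.2% and 18%, 39.8% and 20.5%, and 37.4% and 27.6%. *PTPRC*, a gene that fibroblasts should lack, had a UMI in 0.0259% of the control library and in 0 of the 4513 cells given TGF-β1, which allows a share of up to 0.0817%. Of the same marker list, *CD68* was found in 56.9% and 55.4% of thinned cells and *CD14* in 24.7% and 18.3%. No other cell type that should lack the 10 genes was present, so free RNA could not be measured for them.

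**Figure D3:**
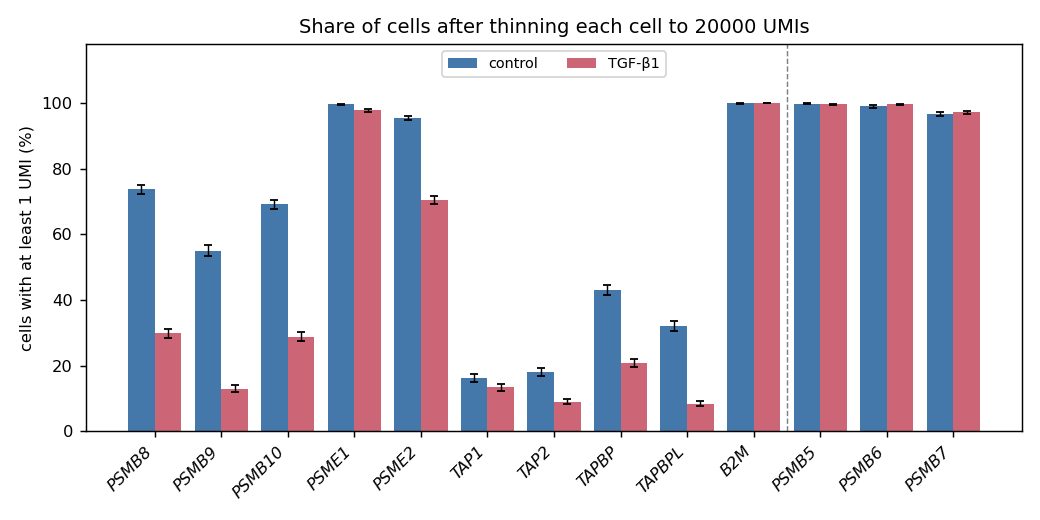
Percent of cells with at least 1 UMI of each gene after thinning every cell to 20000 UMIs, for the control library (blue bars) and the TGF-β1 library (red bars), with exact 95% counting intervals. *PSMB8*, *PSMB9* and *PSMB10* differ most, *PSME1*, *B2M* and the standard subunits to the right of the dashed line are near 100% in both libraries.

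With 2 or more UMIs of *PSMB8* there were 47.2% of control and 7.84% of TGF-β1 cells. The counts were spread more widely than random sampling of 1 common level would give. For *PSMB9* in the control, a Poisson count with the same mean would be above 0 in 62.6% of cells against the 55.1% observed, and the variance was 1.52 times the mean. After TGF-β1, it was 1.24 times the mean, with 14.3% expected and 13.0% observed. This ratio falls with the mean. The squared coefficient of variation beyond Poisson sampling, which does not, was 0.528 for *PSMB9* in the control and 1.58 after TGF-β1, and 0.364 and 0.693 for *PSMB8*. Within the rebuilt clusters of cells it was 0.478 and 1.29 for *PSMB9* and 0.315 and 0.511 for *PSMB8*. It was nearly equal in the libraries for *PSME2*, at 0.210 and 0.199, and for *B2M*, at 0.193 and 0.192. For *TAP2* the variance was 0.983 and 1.01 times the mean, so that no spread between cells beyond sampling was detectable at this depth.

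Counted over the 10 genes, a thinned control cell held UMIs of a median of 6 genes (mean 6.02, SD 1.41 over cells) and a TGF-β1 cell of 4 (mean 3.92, SD 1.22). Without thinning the medians were 8 and 5. Cells with at least 8 of the 10 genes made up 14.3% (13.2% to 15.4%) of the control and 0.443% (0.271% to 0.684%) of the TGF-β1 library. All 10 occurred together in 14 control cells (0.362%) and in 0 of the 4513 cells given TGF-β1, which allows up to 0.0817%. UMIs of all 3 catalytic immunoproteasome subunits were present together in 33.7% (32.2% to 35.3%) of the control and in 1.75% (1.39% to 2.18%) of the TGF-β1 library, and none of the 3 in 6.93% (6.15% to 7.78%) and 45.6% (44.1% to 47.1%).

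**Figure D4:**
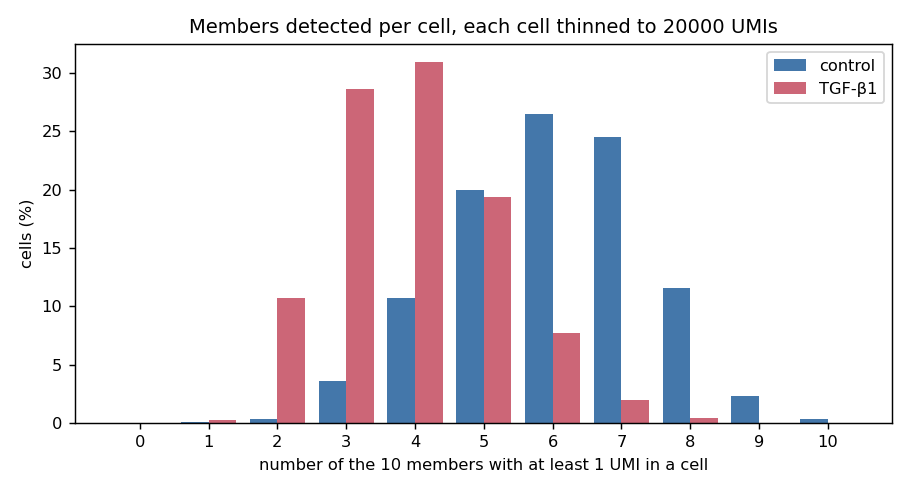
Percent of the cells of each library by the number of the 10 genes that had at least 1 UMI in the cell, after thinning every cell to 20000 UMIs. The control library (blue) has a median of 6 genes and the TGF-β1 library (red) of 4, and the distributions overlap between 1 and 8 genes.

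The subunits were found in the same control cells slightly more often than their separate shares would give. All 3 subunits together had an expected share of 28.0% of control cells if independent, against the observed 33.7%, and none of the 3 had 3.65%, against 6.93%. After TGF-β1 the expected shares were 1.12% and 43.5%, against 1.75% and 45.6%. Between pairs of the 10 genes whose shares lay from 5% to 95%, the observed share of cells with both exceeded the product of the shares in 19 of 21 pairs in the control (median ratio 1.06, range 0.922 to 1.17) and in 23 of 28 pairs after TGF-β1 (median 1.09, range 0.870 to 1.46). The pairs share genes and cells and are not independent. Pairs of other genes were not counted, so whether such an excess is particular to the 10 genes was not tested. *PSME2*, in 95.5% of control cells, was out of range there, and its pairs were counted only after TGF-β1. The medians thus cover different pairs. The ratio can also reach higher values where shares are low, so the medians are not compared between the libraries.

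*PSMB8* and *PSMB9* were the most strongly linked of these pairs in both libraries by the phi coefficient, which is 0 for independence and 1 for full agreement. In the control, 60.3% of cells with *PSMB8* and 40.5% of cells without it had *PSMB9* (phi 0.18, 3865 cells). After TGF-β1 the shares were 18.8% and 10.5% (phi 0.11, 4513 cells). The pair with the highest ratio of observed to product after TGF-β1 was *PSMB9* and *TAP1*, at 1.46, where 19.4% of cells with *PSMB9* and 12.4% of cells without it had *TAP1*. The median phi over pairs was 0.04 in the control and 0.02 after TGF-β1. Correlations this weak in sparse counts are no finding, and differences of cell state or of mare between the pooled cells enter them.

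*PSMB8*, *PSMB9*, *TAP1* and *TAP2* are neighbours in the horse genome. In the RefSeq annotation of the TB-T2T assembly, which is not the EquCab3.0 build of the counts, they stand in the order *TAP2*, *PSMB8*, *TAP1*, *PSMB9* with no other listed gene between them, on chromosome 20 in the MHC region, where *TAPBP* also lies. The annotated spans of *TAP1* and *PSMB9* overlap, as do those of *TAPBPL* with *CD27* and *VAMP1* and of *PSME1* with *EMC9*, and whether reads were shared between these genes in the annotation used for the counts was not tested. *PSME1* and *PSME2* are separated by *EMC9* on chromosome 1, which also carries *B2M*, *PSMB10* lies on chromosome 3 and *TAPBPL* on chromosome 6. The neighbours *PSMB9* and *TAP1* had the lowest and the highest ratio of the 10 genes.

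To see whether the difference was held by some of the cells, the kept cells were clustered again, with the 10 genes left out of the 2000 variable genes. This gave 8 rebuilt clusters with 114 to 889 control cells and 59 to 1215 TGF-β1 cells. The clusters are called by number, except that cluster 6 was cycling-like, with all 9 cycling markers that were found exceeding 2-fold over the remaining cells. In all 8 clusters, 9 of the 10 genes were lower after TGF-β1, beside 24.7% of the 11126 genes measured in every cluster. *PSMB8*, *PSMB9*, *PSMB10*, *PSME2* and *TAPBPL*, 5 of the 10 genes, were more than 2-fold lower in all 8, beside 0.989% of those genes. These counts use the same contrast that the genes were selected on.

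**Figure D5:**
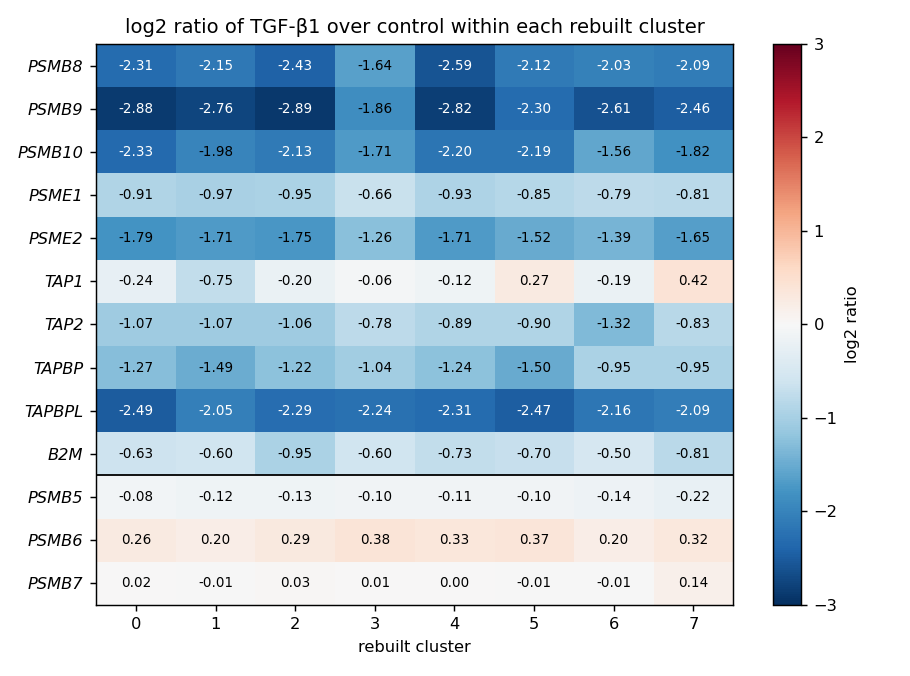
The log2 ratio (TGF-β1 divided by control) of the 10 genes and, below the line, the standard subunits in each of the 8 rebuilt clusters, with the value printed and coloured in blue where lower and in red where higher after TGF-β1. *PSMB9* ranges from -2.89 to -1.86, and *TAP1* is the only one of the 10 genes with ratios above 0, in clusters 5 and 7.

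*TAP1* was the exception. It was lower in 6 of the 8 clusters, with an interval below 0 in clusters 0 and 1 alone, at -0.24 (-0.45 to -0.03) and -0.75 (-1.0 to -0.50). It was higher in clusters 5 and 7, at 0.27 (-0.18 to 0.72) and 0.42 (-0.15 to 0.97), with intervals that include 0. At a clustering resolution of 0.3, with fewer clusters, *TAP1* was lower in all of them. Its partner *TAP2* was lower in all 8, from -1.32 to -0.78, with intervals below 0 in 7 of them.

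Cluster 3, led by *SPP1*, *NRN1*, *MATK*, *KRT7* and *KRT8*, had the smallest difference for most of the proteasome genes. There *PSMB8* went from 117 to 37.7 CPM (log2 ratio -1.64), *PSMB9* from 66.4 to 18.3 CPM (-1.86) and *PSME2* from 182 to 76.4 CPM (-1.26). The other clusters had ratios of -2.59 to -2.03 for *PSMB8*, -2.89 to -2.30 for *PSMB9* and -1.79 to -1.39 for *PSME2*. Cluster 3 had the highest levels of *PSMB8* and *PSMB9* after TGF-β1, at 3.39 and 3.65 times those of the lowest cluster, cluster 4. Its immunoproteasome share after TGF-β1 was 10.6% (10.0% to 11.2%) for *PSMB8* and 5.17% (4.75% to 5.61%) for *PSMB9*, against 3.69% to 6.87% and 1.80% to 2.84% in the other clusters. These shares were already the highest in the control, at 25.6% and 20.4%, against 13.4% to 23.1% and 12.3% to 15.9% in the other clusters. For *PSMB10* the share in cluster 3, 9.63%, lay within the range of the others, 7.79% to 10.6%. The median ratio of the 10 genes ran from -1.60 in cluster 1 to -1.15 in cluster 3.

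The levels of *PSMB8*, *PSMB9*, *PSMB10*, *PSME1*, *PSME2*, *TAPBP* and *TAPBPL* did not overlap between the libraries, in that every cluster of the control lay above every cluster after TGF-β1, as was so for 3.02% of the 11126 genes. *PSMB8* ranged from 58.5 to 120 CPM over control clusters and from 11.1 to 37.7 CPM over TGF-β1 clusters, and *PSMB9* from 35.0 to 66.4 and from 5.01 to 18.3 CPM. *TAPBP* was the most even, at 28.5 to 32.4 CPM over control clusters. *TAP1*, *TAP2* and *B2M* overlapped, with *B2M* at 1459 to 2457 CPM in the control and 878 to 1619 CPM after TGF-β1. Cluster 5, led by *CDC42EP2*, *C1R*, *CFD* and *THY1*, had the highest control levels of *PSMB8*, *PSMB10*, *PSME1*, *PSME2* and *TAPBPL*, and cluster 3 those of *PSMB9*, *TAP1*, *TAP2* and *B2M*. Clusters of a library share 1 pool of cells and 1 droplet library and are not replicates.

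Genes with a like pattern over the clusters were ranked by the Pearson correlation of their log2 CPM with the mean of the 10 genes, over the 16 combinations of cluster and library and after centring within each library. Of 7205 other genes with a symbol that averaged at least 10 CPM, the most alike were *EXOSC7* (r = 0.94), *IGFBP2* (0.92), *DCPS* (0.92), *CCN5* (0.90) and *PCBD1* (0.89). The 10 genes themselves did not all follow this mean, although it contains them. Their own r ran from 0.02 for *TAPBP* to 0.94 for *PSMB9*, with 0.38 for *TAP2*, 0.46 for *TAPBPL* and 0.52 for *TAP1*. The 5 genes are thus alike to the mean and not to each of the 10 genes. The points share libraries and depth, and the r values are a description.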

How the data were processed

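Single cell RNA sequencing was analysed for 2 libraries, control and TGF-β1. The deposited counts are UMI counts per gene and barcode that the authors made with Cell Ranger (7.1.0 in the methods and the submitters' processing notes, 8.0.1 in the file header) against EquCab3.0. The deposited gene and barcode lists hold names. The authors' Souporcell doublets and mares rest on reads and were not repeated, no other doublet caller was run, and their edgeR tests were not repeated. The study's filters were applied, UMIs summed and scaled to CPM in Python 3.11.15 (numpy 2.4.6, scipy 1.17.1, pandas 2.3.3, matplotlib 3.10.9). A ratio needed over 3 UMIs in at least 1 library, or in both libraries of a cluster with at least 50 cells of each. Clusters were rebuilt in Seurat 5.3.0 (SeuratObject 5.2.0, R 4.3.3) after log normalization (2000 variable genes, integration by canonical correlation over 30 dimensions, resolution of 0.5). Intervals (95%, Clopper-Pearson) and the limits beside a count of 0 cover counting error only. The steps were tested on simulated data.

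The 10 genes and the lists were chosen with earlier results of these data known. Named are the 10 genes, the standard subunits, per pathway list the 3 largest ratios among genes averaging at least 1 CPM, the 5 most alike genes and markers. Of the lists, *POMP*, *PSMB2*, *CALR*, *PDIA3*, *LNPEP*, *NPEPPS*, *TPP2*, *CANX*, *HSPA5*, *DQB*, *DRA*, *DQA*, *CIITA*, *CD74*, *IRF9*, *IRF1*, *SOCS1* and *IFNG* were named after their values were seen. RefSeq names matched 10 of 10 genes. A planned promoter motif search was not run, as no sequence was used here. Alternatives were other filters, scalings, fold and CPM limits, thinning depths and clusterings.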

Additional observations from a re-analysis of the deposited data

How the results depend on the processing

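The ratios over all cells of a library kept their direction for the 10 genes in the 9 settings that recompute them. Over other cell filters, removal of cells above the 98th percentile of UMIs, median-of-ratios scaling, CPM averaged over cells, totals without mitochondrial genes, removal of the cycling-like cluster and equal cluster shares, the log2 ratio of *PSMB9* ran from -2.63 to -2.51, that of *TAP1* from -0.32 to -0.20 and that of *TAP2* from -1.0 to -0.98. The count of genes more than 2-fold lower was 6 or 7 of 10, and 9 with a 1.5-fold limit, which 9.36% of all genes passed in that direction. With a minimum of 10 CPM, 8 of the 10 genes remained and their median was -1.86, since *TAP1* and *TAP2* fell out. The number of all genes more than 2-fold different, 837, was 2060 with a 1.5-fold limit, 339 with a minimum of 10 CPM and 2357 with no minimum. The median number of the 10 genes per cell was 5 in control and 3 in TGF-β1 cells when thinned to 10000 UMIs, and 8 and 5 when not thinned. With the 10 genes left in the variable genes, or at resolutions of 0.3 and 0.8, 5 of the 10 genes were more than 2-fold lower in all clusters, beside 1.0%, 1.63% and 0.887% of all genes. The number lower at all in every cluster, 9, was 10 at resolution 0.3, beside 31.7% of all genes, so the exception of *TAP1* depends on the clustering. Without integration, 1 cluster held at least 50 cells of each library, and all 10 genes were lower in it, beside 56.3% of all genes. No paired analysis was possible because the reads that assign the pooled cells to the 4 mares were not used here. The difference between mares and between repeated cultures is in none of the intervals.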

Other observations

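The barcodes that did not pass the filters, 519 of the control library with 3785520 UMIs and 611 of the TGF-β1 library with 4458807 UMIs, were left out of the comparisons of the report and came in only where the cell filters were changed. The 10 genes were selected on the contrast of the same libraries, so their values in these barcodes are a description. *PSMB9* had 121 UMIs in the control and 20 after TGF-β1, so that its log2 ratio was -2.83 (-3.59 to -2.14, counting error only). *B2M* was at 1299 and 689 CPM, lower in both libraries than in the kept cells. *TAP1*, with 46 and 36 UMIs, had a ratio of -0.59 (-1.26 to 0.07), whose interval includes 0. These barcodes come from the same pools and libraries as the kept cells and are no replicate of them.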
